A study of Mus musculus with 8 samples.

Results

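The 9 genes described here code for the kinases, adaptors and phosphatases that sit next to the T cell receptor: Lck, Fyn, Zap70, Lat, Lcp2, Csk, Ptprc, Ptpn22 and Ptpn6. They were taken by symbol (LCK, FYN, ZAP70, LAT, LCP2, CSK, PTPRC, PTPN22 and PTPN6 in its upper-case spelling) from a table of raw read counts for 46625 gene names, and all 9 were found and passed the filter on low counts. The libraries were made from 8F10 T cells, which carry an insulin peptide-specific receptor on a background deficient in the endogenous receptor alpha chain. Marrow stem cells of CD45.2 8F10 donors, depleted of T and B cells, were transferred into CD45.1 hosts that had received a non-lethal dose of irradiation, and the T cells were sorted from inguinal lymph nodes 6 weeks later. The hosts were NOD mice, which make native insulin, or B16A mice, NOD animals whose insulin carries an alanine in the B chain; all samples bear the strain label NOD/ShiLtJ. Irradiation, donor genotype and time were common to both groups. Ages, sexes and the number of animals per sample are not given in the labels. Each host had 4 libraries, numbered by batch 1 to 4 in the labels, with 1 library of each host per batch, and hosts were compared within batches.

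A T cell receptor has no enzyme activity of its own. The kinase Lck, carried by the co-receptors, and its relative Fyn phosphorylate the receptor's signalling chains, Zap70 binds these and is activated, and Zap70 then phosphorylates the adaptors Lat and Lcp2 (SLP-76), which assemble the downstream complex. Csk holds Lck and Fyn inactive by phosphorylating a tyrosine in their tails, the phosphatase CD45 (Ptprc) removes that phosphate, and Ptpn22 and Ptpn6 (SHP-1) dephosphorylate the activated kinases and their substrates. CD45 is also the product whose CD45.1 and CD45.2 alleles tell host from donor cells, which counts per gene do not separate.

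Lck and Lat had the largest differences between hosts among these genes, and both were higher in the NOD library in every batch, by about 1.42-fold and 1.39-fold in the fit. Fyn was lower in the NOD library in every batch with 3 of 4 scalings of the libraries (3 of 4 batches with the other), by a small amount. The other 6 genes had no common direction over the batches, except Ptpn22 with DESeq2 size factors, higher in 4 of 4. Of all tested genes, with the main scaling (TMM), 7.43% were higher and 6.85% lower in NOD in 4 of 4 batches. None of the 9 differences passed adjustment over all tested genes. Lck, Lat and Ptpn22 also stood at least 2-fold higher in batch 4 than in batches 1 to 3, in both hosts, Lat not so with upper-quartile scaling. So did 20.9% of all tested genes, or 12.4% with upper-quartile scaling.

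The start regions of Lck and Lat are shown because these members differed most between hosts. The sequences are RefSeq's for GRCm38.p6, from 250 bases before to 50 bases after each annotated start, and all lie on the minus strand. RefSeq lists 2 starts for Lck: the upstream one at chr4:129573592-129573891 and the downstream one at chr4:129558323-129558622. Lck is known to be transcribed from a proximal promoter in thymocytes and a distal one in mature T cells, and counts per gene do not tell which start was used. The window of Lat is at chr7:126369519-126369818. Capitals mark matches, on either strand, to the letters GGAAGT (an ETS core), TGTGGT (a RUNX core) and GGGCGG (an SP1 core); no match in these windows overlaps another.
Lck upstream start: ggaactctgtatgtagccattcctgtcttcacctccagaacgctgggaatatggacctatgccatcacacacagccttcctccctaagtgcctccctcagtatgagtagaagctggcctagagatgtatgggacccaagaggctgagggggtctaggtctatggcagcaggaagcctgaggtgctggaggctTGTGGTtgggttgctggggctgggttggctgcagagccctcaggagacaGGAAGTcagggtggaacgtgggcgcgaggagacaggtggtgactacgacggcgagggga
Lck downstream start: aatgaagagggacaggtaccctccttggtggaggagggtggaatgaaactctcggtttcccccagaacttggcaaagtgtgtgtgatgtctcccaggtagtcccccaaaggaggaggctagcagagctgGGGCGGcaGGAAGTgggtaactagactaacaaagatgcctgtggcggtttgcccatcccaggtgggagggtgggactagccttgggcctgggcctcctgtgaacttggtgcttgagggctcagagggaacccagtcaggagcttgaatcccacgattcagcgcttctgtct
Lat start: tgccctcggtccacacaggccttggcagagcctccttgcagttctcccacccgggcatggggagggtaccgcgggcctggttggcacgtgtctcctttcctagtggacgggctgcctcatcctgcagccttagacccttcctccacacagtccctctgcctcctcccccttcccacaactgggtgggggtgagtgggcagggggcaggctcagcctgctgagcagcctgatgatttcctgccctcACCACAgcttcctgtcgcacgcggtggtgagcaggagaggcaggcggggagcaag
The upstream Lck window holds 1 match to the RUNX letters and 1 to the ETS letters, and the downstream window holds 1 to the SP1 letters and 1 to the ETS letters. The Lat window holds 1 RUNX match, written ACCACA on the strand shown. Of all 32851 RefSeq windows of this length 23.8% hold the ETS letters, 16.8% the RUNX letters and 35.7% the SP1 letters. All 15 windows of the 9 genes were searched, and 7, 4 and 4 of them hold these letters, in the same order. The 2 windows of Ptprc overlap, so 1 ETS match lies in 2 of the 7. A match is a description of the sequence and not a bound site.

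Total counts ran from 4896593 to 6137666 in batches 1 to 3 and were 28301805 and 28094237 in batch 4 (NOD and B16A). Both batch 4 libraries stood apart. They detected 19751 and 20723 genes against 29729 to 33175 in the others, and Cd69, an early activation marker, stood at 4781 and 3734 CPM (counts per 1000000 counts of the library) against 88.2 to 357. In batch 1 Xist, the RNA of the silenced X, stood at 1039 and 1207 CPM and Kdm5d, a Y-linked gene, at 0.516 and 0.152 CPM. In batches 2 to 4 Xist stood at 0.314 to 33.7 CPM and Kdm5d at 78.8 to 107 CPM. Summed over 10 T cell markers, the level was 5105 to 14718 CPM in NOD and 4655 to 11870 CPM in B16A hosts. The 6 B cell markers summed to 1.72 to 20.9 CPM, the 5 macrophage and monocyte markers to 2.38 to 36.7 CPM and the 6 dendritic cell markers to 3.77 to 54.4 CPM over the 8 libraries. The 2 CD8 T cell markers summed to 65.3 to 186 CPM, of which Cd8b1 made 62.6 to 186 and Cd8a 0 to 3.56. The 4 natural killer cell markers summed to 3.96 to 22.8 CPM, lower in NOD in 4 of 4 batches. The 3 erythroid markers summed to 0.0419 to 2.43 CPM, higher in NOD in 4 of 4. The 5 stromal and endothelial markers summed to 270.1 to 411 CPM, of which Pecam1 made 269 to 403; Pdpn was at 0 in all 8. No tested marker of these lists passed, and their part in the results was not tested. In bulk samples, fewer cells of a type and less RNA per cell cannot be told apart.

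Lck, the kinase bound to CD4, stood at 516, 406, 571 and 2544 CPM in NOD hosts (batches 1 to 4) and at 382, 383, 377 and 1361 CPM in B16A hosts. The NOD library was the higher of each pair, and within batches 1 to 3 every NOD library lay above every B16A library. The B16A libraries of batches 1 to 3 were close to each other, at 381 ± 3.54 CPM (SD, n = 3), against 497 ± 83.8 CPM in NOD. The within-batch log2 ratios, NOD over B16A host, were 0.43, 0.08, 0.60 and 0.90. In the fit with the batch as a term the log2 fold change was 0.51 (standard error, SE, 0.15; 95% interval 0.19 to 0.83), but it did not pass: the unadjusted p was 0.00432 and the adjusted p 0.683 (edgeR quasi-likelihood test). By unadjusted p Lck was gene 88 of 14607. DESeq2 gave an adjusted p of 0.0664, limma voom 0.166, and edgeR without the batch term 0.9999. The DESeq2 value is adjusted over only the 3563 genes to which it gave an adjusted p, the others over 14607. With both batch 4 libraries left out the log2 fold change was 0.37 (edgeR adjusted p = 0.412).

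Fyn, the second Src family kinase of T cells, stood at 273, 264, 262 and 272 CPM in NOD hosts and at 343, 323, 274 and 276 CPM in B16A hosts. All NOD libraries lay below all B16A libraries, by 272.6 against 274.4 CPM at the closest, which 0.39% of all tested genes also did. That gap over all 8 libraries was present with TMM scaling, the scaling used throughout, and absent with 3 other scalings. Within-batch log2 ratios were -0.33, -0.29, -0.07 and -0.02, and the fit gave -0.18 (SE 0.13; 95% interval -0.45 to 0.10; edgeR, adjusted p = 0.938). With DESeq2 size factors 1 of the 4 batches was higher in NOD; with upper-quartile factors or library totals 0 were. Its highest of the 8 libraries was 1.31-fold its lowest, the narrowest span of the 9 with TMM and with DESeq2 size factors (1.40-fold). With upper-quartile factors (2.00-fold) and library totals (1.72-fold) other members were narrower, among them Ptprc at 1.27-fold and 1.33-fold.

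Zap70, the kinase recruited to the phosphorylated receptor, stood at 109, 94.4, 102 and 146 CPM in NOD hosts and at 97.0, 139, 107 and 124 CPM in B16A hosts. The hosts overlapped, and the NOD library was higher in batches 1 and 4 and lower in batches 2 and 3. The log2 fold change was -0.05 (SE 0.16; 95% interval -0.39 to 0.28; edgeR, adjusted p = 0.997). Without batch 2 it was 0.11.

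**Figure D1:**
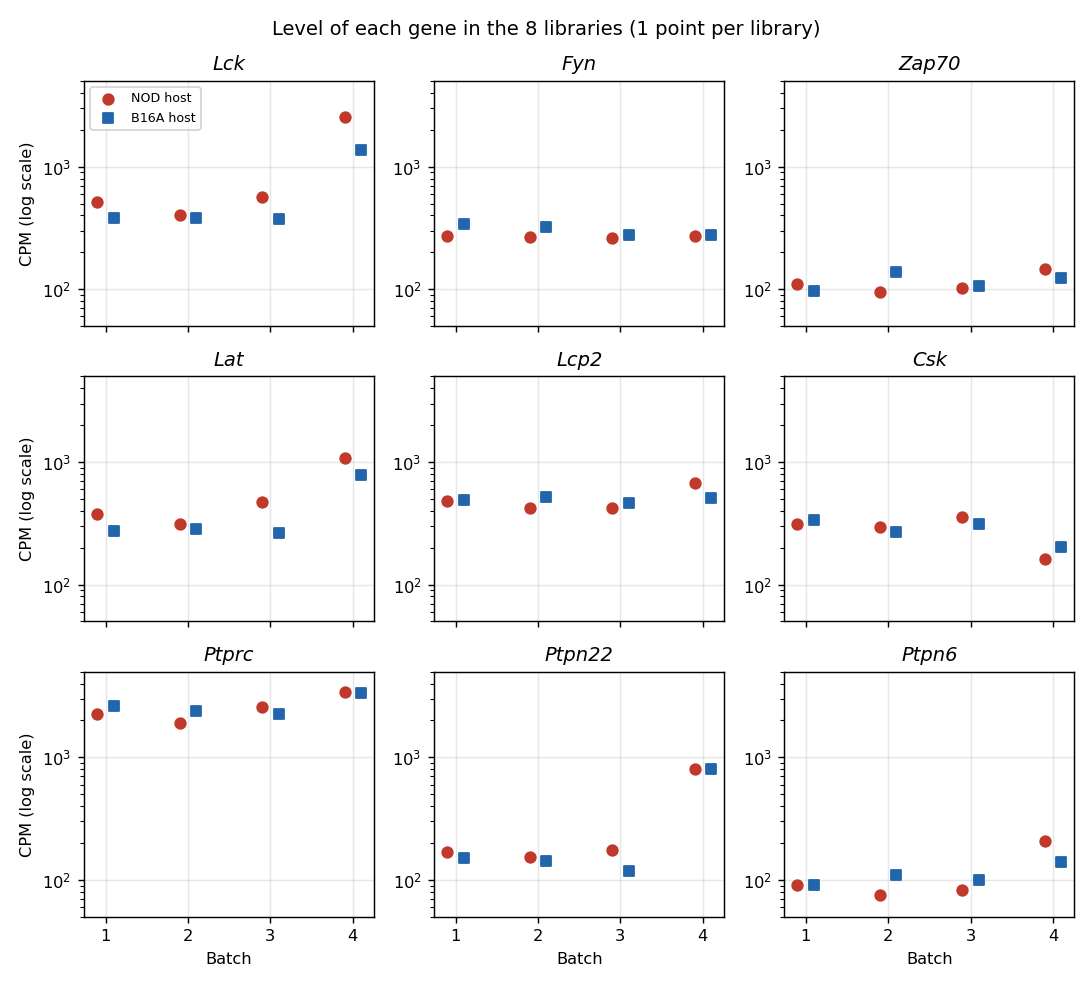
CPM of the 9 genes (log axis) by batch, 1 point per library and so no error bars; red circles are NOD hosts and blue squares B16A hosts. Lck, Lat, Ptprc, Ptpn22 and Ptpn6 are highest in both batch 4 libraries, and Fyn lies between 262 and 343 CPM in all 8.

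Lat, the membrane adaptor that Zap70 phosphorylates, stood at 374, 311, 469 and 1084 CPM in NOD hosts and at 276, 282, 262 and 777 CPM in B16A hosts. As for Lck, the NOD library was higher in each batch and the hosts did not overlap in batches 1 to 3. Within-batch log2 ratios were 0.44, 0.14, 0.84 and 0.48. The fit gave 0.47 (SE 0.14; 95% interval 0.17 to 0.78), which did not pass in edgeR, at an unadjusted p of 0.00456 and an adjusted p of 0.683. DESeq2 gave an adjusted p of 0.0664 (over 3563 genes only) and limma voom 0.128. With batch 4 left out the log2 fold change stayed at 0.47 (edgeR, adjusted p = 0.234). The summed T cell markers were also higher in the NOD library in 4 of 4 batches, at 6759 against 6237, 5105 against 4655, 8929 against 6399 and 14718 against 11870 CPM. That holds for the sum and not for each marker. Cd3e stood at 1523, 1078, 1808 and 4203 CPM in NOD hosts and at 1578, 1107, 1199 and 2499 CPM in B16A hosts. Cd4 stood at 1028, 1026, 1170 and 917 CPM in NOD and at 1160, 1204, 1084 and 699 CPM in B16A hosts. Within-batch log2 ratios of Cd5 were -0.48, -0.34, -0.60 and 0.68. None of the 10 markers passed, none was at 0 in any library, and their part in the values of Lck and Lat was not tested.

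Lcp2, the cytosolic adaptor that joins Lat through a bridging protein, stood at 481, 421, 422 and 669 CPM in NOD hosts and at 493, 518, 465 and 507 CPM in B16A hosts. The NOD library was the lower one in batches 1 to 3 and the higher one in batch 4, so the hosts overlapped. Its log2 fold change was -0.02 (SE 0.14; 95% interval -0.32 to 0.29; edgeR, adjusted p = 0.998). The adaptors thus had unlike values, Lat above and Lcp2 near 0, and the difference between them was not tested.

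Ptprc, which codes for CD45, stood at 2272, 1926, 2586 and 3391 CPM in NOD hosts and at 2619, 2387, 2261 and 3352 CPM in B16A hosts. The ranges of the hosts overlapped, and each was higher in 2 of 4 batches. The log2 fold change was -0.08 (SE 0.14; 95% interval -0.39 to 0.23; edgeR, adjusted p = 0.988). Without batch 2 it was 0.00075.

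Csk, the kinase that keeps Lck and Fyn inactive, stood at 311, 297, 359 and 162 CPM in NOD hosts and at 339, 269, 315 and 201 CPM in B16A hosts. Its lowest values were in batch 4, in both hosts. The direction between hosts differed from batch to batch, and the log2 fold change was -0.03 (SE 0.13; 95% interval -0.31 to 0.26; edgeR, adjusted p = 0.998); without batch 4 it was 0.07.

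Ptpn22, the phosphatase that acts on activated Lck and Zap70 and pairs with Csk, stood at 170, 152, 175 and 804 CPM in NOD hosts and at 151, 142, 118 and 811 CPM in B16A hosts. In batches 1 to 3 all NOD libraries lay above all B16A libraries, by 152.4 against 151.0 CPM at the closest, while in batch 4 the hosts were nearly level. The log2 fold change was 0.21 (SE 0.14; 95% interval -0.09 to 0.50; edgeR, adjusted p = 0.929). Without batch 3, whose log2 ratio was 0.57, it was 0.09.

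Ptpn6, the phosphatase SHP-1, stood at 90.7, 74.8, 82.5 and 209 CPM in NOD hosts and at 90.4, 109, 101 and 139 CPM in B16A hosts. The NOD library was level with its partner in batch 1, lower in batches 2 and 3 and higher in batch 4. Its log2 ratios of -0.54 in batch 2 and 0.58 in batch 4 were the widest spread of the set. The log2 fold change was -0.05 (SE 0.17; 95% interval -0.43 to 0.32; edgeR, adjusted p = 0.998), and without batch 2 it was 0.11. An antisense gene, Gm20531, overlaps 6.96% of the exon length of Ptpn6, and 4930469K13Rik on the opposite strand overlaps 6.32% of that of Lcp2. The use of strand in counting is not given in the sources used here, so reads there could belong to either gene.

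**Figure D2:**
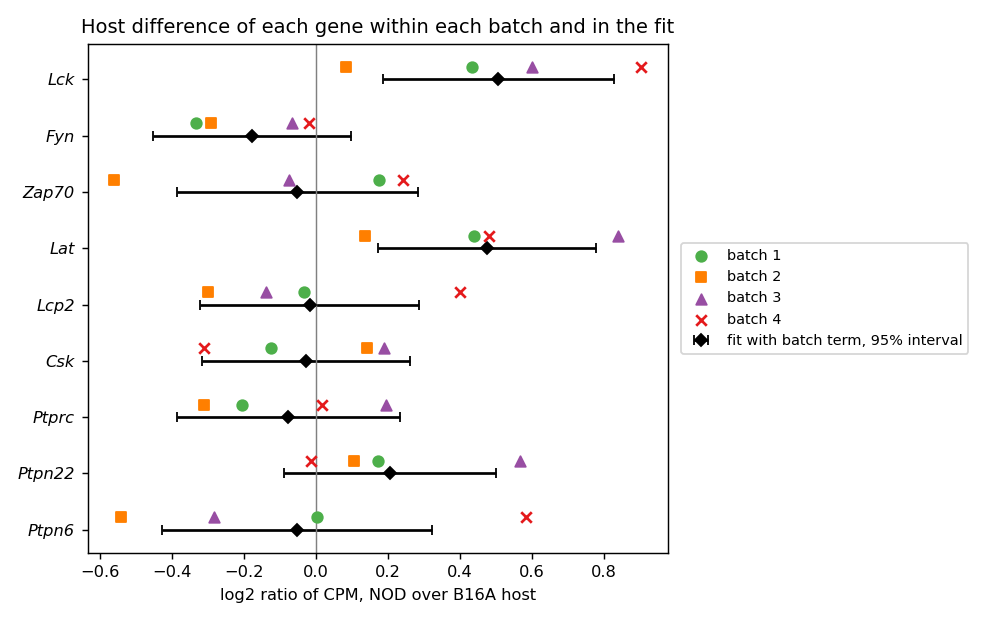
Log2 ratio of the NOD to the B16A level (CPM) of each gene: coloured markers are the ratio of 1 pair of libraries in each batch, and black diamonds with bars are the fitted log2 fold change with its 95% interval. Only the intervals of Lck (0.19 to 0.83) and Lat (0.17 to 0.78) lie wholly above 0; neither passed adjustment over all genes.

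Counted together, 0 of the 9 genes passed an adjusted p of 0.05, and neither did any other of the 14607 tested genes (0% called by edgeR with the batch term). At an unadjusted p under 0.05 stood 2 of the 9, Lck and Lat, and 857 of all genes (5.87%). DESeq2 called 0 of the 9 and 27 genes in all (0.758% of the 3563 with an adjusted p). Limma voom called 0 of the 9 and 7 genes in all (0.0479% of 14607). With batch 4 left out edgeR called 32 genes and again 0 of the 9.

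Higher in NOD in 4 of 4 batches were 2 of the 9, Lck and Lat, against 7.43% of all tested genes, and these held under all 4 scalings tried. Lower in 4 of 4 was 1, Fyn, against 6.85%. Within batches 1 to 3 the NOD libraries lay wholly above the B16A libraries for 3 of the 9 (Lck, Lat and Ptpn22), against 4.75% of all tested genes, and wholly below for 1 (Fyn), against 5.44%. The 3 above were the same with all 4 scalings. Below stood 2 with DESeq2 size factors (Fyn and Ptpn6, against 5.65%) and 3 with upper-quartile factors or library totals (Fyn, Lcp2 and Ptpn6, against 5.87% and 6.98%). The median log2 fold change of the 9 was -0.03, beside 0.01 over all tested genes, with 3 positive and 6 negative values. That split depended on the batches: without batch 2 it was 7 and 2, without batch 3 it was 5 and 4, and without the batch term 6 and 3.

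Between the Src family kinases, Lck was above and Fyn below its B16A partner in each batch (with DESeq2 size factors, Fyn in 3 of 4). The ratio of Lck to Fyn CPM was 1.89, 1.53, 2.18 and 9.34 in NOD hosts and 1.11, 1.18, 1.37 and 4.93 in B16A hosts. These are ratios of CPM not corrected for gene length, so they are compared between libraries and do not rank the genes. The NOD library had the higher ratio in 4 of 4 batches, by 0.68 ± 0.23 on the log2 scale (SD over 4 batches). The ratio of Lck to Ptpn6 was likewise higher in NOD in 4 of 4 batches, by 0.56 ± 0.25, and that of Lck to Csk in 3 of 4, by 0.53 ± 0.53, with batch 2 at -0.06 and batch 4 at 1.21; without batch 4 the mean was 0.30. Zap70 to Ptpn22 was higher in NOD in 2 of 4 batches, with a mean of -0.26 ± 0.46, which was -0.13 without batch 2, -0.14 without batch 3 and -0.44 without batch 4. These are descriptions of values already given for the single genes and were not tested.

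**Figure D3:**
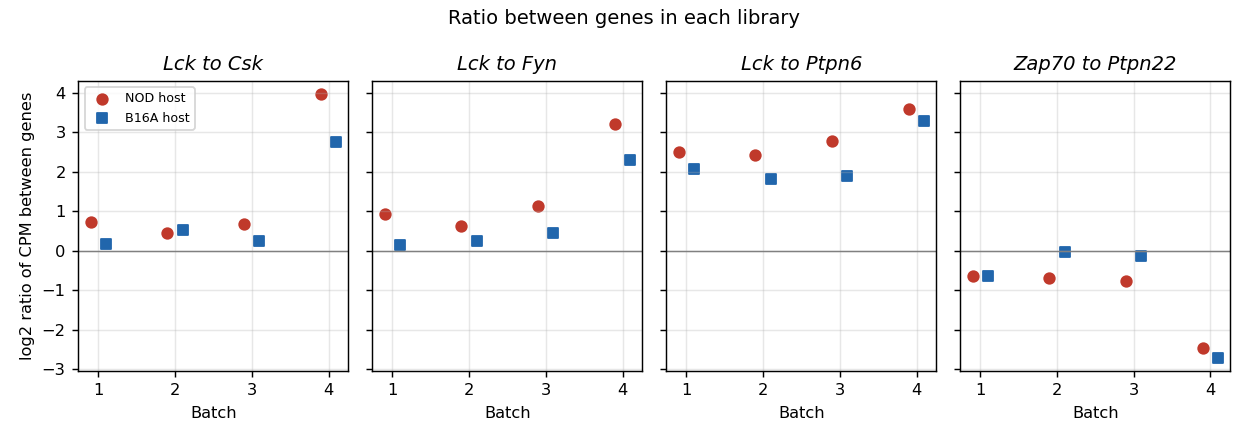
Log2 ratio of CPM between pairs of genes in each library, by batch (red circles NOD hosts, blue squares B16A hosts, 1 point per library, no error bars). The NOD point is above the B16A point in all 4 batches for Lck to Fyn and for Lck to Ptpn6, and in 3 of 4 for Lck to Csk.

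For Lck, Lat and Ptpn22 the folds of batch 4 over batches 1 to 3 were larger than the fitted folds between hosts. Over the mean of batches 1 to 3, with TMM scaling, Lck in batch 4 was 5.12-fold in NOD and 3.58-fold in B16A hosts, Lat 2.82-fold and 2.84-fold, and Ptpn22 4.85-fold and 5.93-fold. These are the 3 of 9 members at 2-fold or more in both hosts, against 20.9% of all tested genes. These folds depended on the scaling: with upper-quartile factors Lck was at 3.19-fold and 2.26-fold, Ptpn22 at 3.02-fold and 3.74-fold, and Lat at 1.76-fold and 1.79-fold, so that 2 of 9 reached 2-fold, against 12.4% of all tested genes. With DESeq2 size factors and library totals the same 3 reached it. With TMM, Ptpn6 was 2.53-fold and 1.40-fold, Ptprc 1.50-fold and 1.38-fold, Lcp2 1.51-fold and 1.03-fold, and Zap70 1.43-fold and 1.08-fold. Fyn was at 1.02-fold and 0.879-fold, and Csk was at 0.504-fold and 0.655-fold. At 0.5-fold or less in both hosts stood 0 of the 9, against 33% of all tested genes; with upper-quartile factors 1 did (Csk, at 0.314-fold and 0.414-fold), against 43.1%, and Zap70, Lcp2, Ptprc and Fyn were below 1-fold in both hosts. Batch 4 has 1 library of each host, so these folds have no replicate check. Its higher depth, fewer detected genes and lower share of Gm10800 cannot be told apart from the batch.

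Per kilobase of annotated exon, Lck led with a median of 157 CPM per kb over the 8 libraries (range 129 to 869), followed by Ptprc at 136, Lat at 124 and Lcp2 at 109. Csk (81.3) and Fyn (62.7) came next, and Zap70 (36.2), Ptpn6 (34.1) and Ptpn22 (23.8) were lowest. Of neighbours in this order, Fyn and Zap70 alone kept it within every library, in 8 of 8; Lck exceeded Ptprc, and Lcp2 exceeded Csk, in 7 of 8. The neighbours Ptprc and Lat (3 of 8), Lat and Lcp2, Csk and Fyn, and Zap70 and Ptpn6 (5 of 8 each) were not separated beyond the spread of the libraries, and Ptpn6 exceeded Ptpn22 in 6 of 8. The order depends on the length used, at the top and at the bottom. Ptprc has 18.313 kb of exon over all its annotated transcripts and 5.074 kb in its longest coding transcript. Per kilobase of the longest coding transcript it led with 490 CPM per kb, above Lat (277) and Lck (211). On that scale Ptpn22 (58.8) was not lowest but above Zap70 (48.2), in 6 of 8 libraries, and Ptpn6 (41.4) came last.

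The members lie on 8 chromosomes of mm10: Lck at chr4:129548344-129573641, Fyn at chr10:39368855-39565381, Lat at chr7:126363824-126369570 and Lcp2 at chr11:34046920-34092295. Zap70 (chr1:36761798-36782818) and Ptprc (chr1:138062861-138175708) share chromosome 1. Csk is at chr9:57626646-57653631, Ptpn22 at chr3:103859795-103912247 and Ptpn6 at chr6:124720707-124738714.

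Other genes of the proximal pathway showed no member past the threshold either. The list of 20 forward-acting genes (among them the kinase Txk, the phospholipase Plcg1, adaptors and Ras activators) had 0 called higher and 0 lower, with 8 positive and 12 negative values and a median log2 fold change of -0.05. Its smallest p-values belonged to Skap1, an adaptor of integrin activation, and Grap, a relative of the adaptor Grb2. Skap1 averaged 530 ± 362 (NOD) and 421 ± 239 CPM (B16A; SD over 4 libraries each) and was higher in NOD in 4 of 4 batches, at a log2 fold change of 0.27 (SE 0.13; edgeR, adjusted p = 0.848). Batch 4 had Skap1 at 1066 (NOD) and 773 CPM (B16A), against 244 to 395 in batches 1 to 3, so these means and SDs depend on batch 4. Grap averaged 248 ± 94.5 (NOD) and 195 ± 36.3 CPM (B16A), at a log2 fold change of 0.30 (SE 0.15; edgeR, adjusted p = 0.859). It was higher in NOD in 3 of 4 batches, with batch 2 at -0.14, and the fit without batch 4 gave 0.18. Its batch 4 libraries stood at 388 (NOD) and 245 CPM (B16A), against 163 to 225 in batches 1 to 3. Lower in 4 of 4 batches were 5 of the 20, against 6.85% of all tested genes: the kinases Txk (-0.17) and Prkcq (-0.17), the adaptor Grap2 (-0.21) and the Ras activators Rasgrp1 (-0.21) and Sos1 (-0.28). They are named after their values were seen.

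Of 24 listed restraining genes 23 were tested, and Lime1 fell below the filter. None was called, 11 were positive and 12 negative, and the median log2 fold change was -0.01. Dok2, an adaptor that recruits inhibitors of Ras, averaged 42.7 ± 47.2 (NOD) and 24.7 ± 23.3 CPM (B16A; SD over 4 libraries each). Its log2 fold change was 0.70 (SE 0.22; edgeR, unadjusted p = 0.00630 and adjusted p = 0.725). Its within-batch log2 ratios were -0.03, 1.27, 0.57 and 0.94. Batch 4 had Dok2 at 113 (NOD) and 59.0 CPM (B16A), against 8.11 to 19.8 in batches 1 to 3. Cbl, a ubiquitin ligase that acts on activated kinases, averaged 140 ± 69.5 (NOD) and 172 ± 78.4 CPM (B16A), at a log2 fold change of -0.39 (SE 0.16; edgeR, adjusted p = 0.821). Its within-batch log2 ratios were 0.08, -0.52, -0.26 and -0.84, and the fit gave -0.23 without batch 4 and -0.21 in limma voom. Batch 4 had Cbl at 36.2 (NOD) and 65.0 CPM (B16A), against 170 to 249 in batches 1 to 3. Dok1, the relative of Dok2, was the other one of 3 of 23 at an unadjusted p under 0.05 (5.87% of all tested genes), at 4.85 ± 4.32 (NOD) and 2.24 ± 1.88 CPM (B16A) (log2 fold change 1.13, SE 0.52, edgeR adjusted p = 0.844), and is named after its value was seen. Batch 4 had Dok1 at 11.3 (NOD) and 4.90 CPM (B16A), against 0.468 to 3.27 in batches 1 to 3. The means and SDs of Dok2, Cbl and Dok1 thus depend on batch 4.

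**Figure D4:**
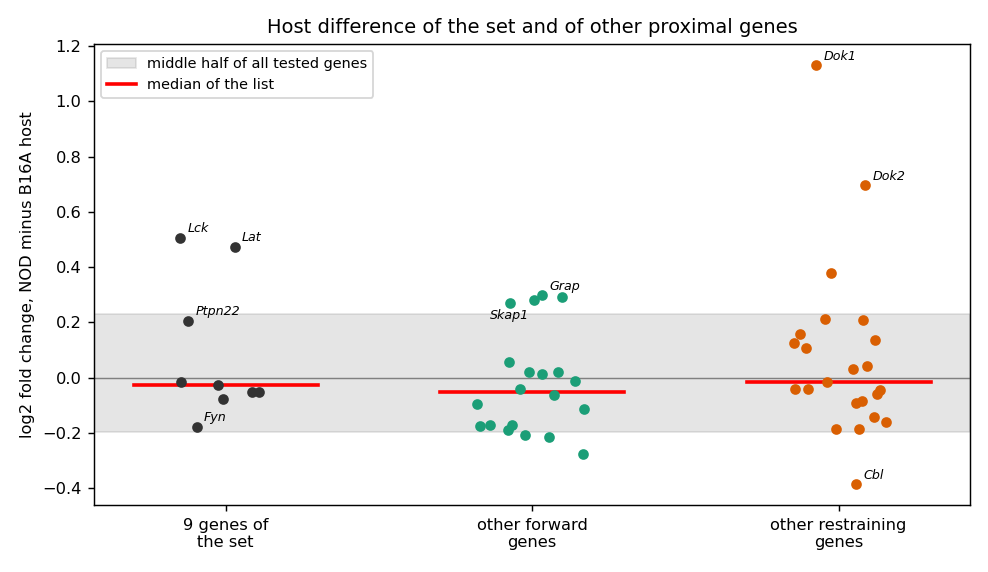
Log2 fold change, NOD minus B16A host, of the 9 genes, the 20 other forward genes and the 23 tested restraining genes (1 point per gene, jittered sideways; red lines are medians; the grey band holds the middle 50% of all tested genes, from -0.20 to 0.23). Outside the band lie Lck and Lat above; of the forward genes Skap1, Grap, Plcg1 and Trat1 above and Sos1, Rasgrp1 and Grap2 below; and of the restraining genes Dok1, Dok2 and Ptprj above and Cbl below. None passed adjustment.

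B cells and myeloid cells use relatives of these proteins, such as Lyn, Fgr and Blk in place of Lck, Syk for Zap70, Blnk for Lcp2 and Lat2 for Lat. With the kinase Btk, 7 such genes were listed; all 7 were low, and 4 passed the filter. Syk averaged 2.97 ± 2.08 (NOD) and 3.79 ± 2.32 CPM (B16A), beside 113 ± 22.9 and 117 ± 18.6 CPM for Zap70 (SD over 4 libraries each). Lyn stood at 1.83 ± 1.31 and 3.10 ± 2.13 CPM. Neither passed: the log2 fold change was -0.89 (SE 0.73) for Syk and -1.11 (SE 0.70) for Lyn (edgeR, adjusted p = 0.942 and 0.917). Both genes were at 0 CPM in the NOD library of batch 4, and without that batch the values were -0.24 and -0.69; without batch 1 they were -1.46 and -1.68, and in limma voom -0.27 and -0.64.

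The profiles over the 8 libraries most like those of 3 members were found by the root mean square difference of log2 CPM around each gene's mean, over 10731 other genes at 4 CPM or more. For Lck these were 1810041H14Rik (0.10), Icam2 (0.11) and Map2k3 (0.14), against a median of 0.94 over all genes compared. Icam2, an adhesion molecule, ranged over 38.1 to 57.9 CPM in the first 3 batches and reached 240 (NOD) and 130 CPM (B16A) in batch 4. Nearest to Zap70 were Rhog (0.07), Mef2a (0.09) and Chd2 (0.10), against a median of 0.63, and nearest to Ptpn22 were Atg10 (0.10), Fam49b (0.10) and Wdr74 (0.12), against 1.02. Batch 4 is the main feature of the profiles of Lck and Ptpn22. Icam2 was picked for its likeness to Lck over these same libraries, batch 4 included, so its rise there follows from that choice.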

How the data were processed

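Per the labels' protocols, RNA was amplified (SeqPlex) and sequenced as 50-base single reads. The authors deposited 1 table of raw read counts per gene. The submitters' processing notes name STAR, HTSeq, DESeq2 and mm10; annotation, versions and strand setting were not given in the sources used here. All 8 libraries were grouped by title. Nothing in the labels ties the samples of a host to separate animals, and p-values then reflect only how these samples vary, some of which may be technical.

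The test was edgeR 4.0.16 (R 4.3.3; glmQLFit with robust estimation, glmQLFTest, filterByExpr by host, TMM), with host and batch as terms; 14607 of 46625 genes were tested, with 3 residual degrees of freedom, and p-values were Benjamini-Hochberg adjusted over all of them (threshold 0.05). Standard errors were derived from the F statistic. The batch term is in the fit because the labels number the libraries by batch; between the libraries of a batch, deviations from the host means correlated across genes with r = 0.625, 0.702, 0.611 and 0.906. Libraries of different batches among batches 1 to 3 correlated as well (0.465 to 0.741), so these values set batch 4 apart (-0.825 to -0.636 with the others) and do not show a pairing within batches 1 to 3. Every pair of libraries differed by more than sampling noise (smallest chi-square per degree of freedom 7.04). CPM use TMM library sizes, and log2 CPM a prior count of 2. Alternatives were the fit without the batch term, other scalings and filters, DESeq2 1.42.0, limma 3.58.1 voom, and each batch left out; scaling by library totals, and the batch 4 folds and host separation under each scaling, were added after the data were seen. The code was tested on simulated data. Library totals, genes detected, and the shares of the top 10 genes and of mitochondrial genes were compared between hosts by an exact two-sided sign-flip permutation test over 4 pairs (p = 0.625, 0.75, 0.25 and 0.25, higher in NOD in 2, 1, 3 and 1 of 4 batches; the smallest possible is 0.125).

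The members and lists were chosen with earlier results of these data known. Of the listed genes, 2 are not reported here and were left out of the lists' counts. Named are all 9 members; of each further list, up to 4 genes that passed or else the 2 with the smallest p; and the 3 genes most like Lck, Zap70 and Ptpn22. Positions and lengths are from GENCODE M21 of GRCm38, the assembly mm10 denotes, which matched 13680 of the tested genes (93.7%) and all 9 members.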

Additional observations from a re-analysis of the deposited data

Results flagged for a closer look

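In each host the level of each of the 9 genes was checked for a library far from the other 3 of its group, 18 groups in all. A library stood apart in 6 groups, and in all 6 it was the batch 4 library. Chance alone marks about 1 group in 20 if groups are independent, but these groups share the same batch 4 libraries. Of all tested genes, 20.9% stood at 2-fold or more and 33% at 0.5-fold or less in batch 4 in both hosts. The check was not run over all genes, so the 6 are not read as particular to these 9 genes. The 6 included Lck at 2544 (NOD) and 1361 CPM (B16A), and Ptpn22 at 804 (NOD) and 811 CPM (B16A). Lat stood apart at 777 CPM in B16A hosts and Ptpn6 at 209 CPM in NOD hosts.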

How the results depend on the processing

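Over 12 alternatives the log2 fold changes of Lck (0.37 to 0.69), Lat (0.35 to 0.58), Ptpn22 (0.09 to 0.28) and Fyn (-0.23 to -0.14) kept their sign, and none of the 9 genes passed under any of them; the lowest adjusted p was 0.0664, for Lck and Lat in DESeq2. With no replicate block the signs of Lcp2 (0.0080), Csk (0.0068) and Ptpn6 (0.058) turned, Lck was at 0.69, and 34 genes had an unadjusted p under 0.05 instead of 857, with 0 called. Limma voom turned Csk (0.0079). With either library of a batch left out its partner carries no information on the host, so whole batches were left out: Zap70 then ranged from -0.15 to 0.11, Lcp2 from -0.15 to 0.075, Csk from -0.10 to 0.072, Ptprc from -0.16 to 0.00075 and Ptpn6 from -0.27 to 0.11. The genes called over all tested genes ranged from 0 to 25 higher and 0 to 7 lower, the latter values without batch 4. With no filter on low counts 11 were called higher and 3 lower, in DESeq2 23 and 4, and in limma voom 6 and 1. The cause of these changes was not tested. The lowest count in any library was 2171 for Lck, 1622 for Lat, 1414 for Fyn and 400 for Ptpn6.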
